A study of Mus musculus with 125 samples.

Results

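Of 256400 consensus peaks of accessible chromatin in 4 mouse B-ALL (B-cell acute lymphoblastic leukaemia) lines, 101 were open in lines A and B and closed in C and D without natural killer (NK) cells. A peak was a member if it lay on chromosomes 1 to 19, overlapped a broad peak called in at least 15 of the 18 libraries of A and B grown alone, and overlapped one in at most 1 of the 23 libraries of C and D grown alone. Members were thus chosen by the peak calls of B-ALL alone, and the difference between the pairs in B-ALL alone is a description and not a result. For scale, 27911 peaks met the A/B part of the rule, 25700 were open in both pairs (at least 15 of 18 A/B and 20 of 23 C/D libraries), and 222 were open only in C/D by the mirrored rule. In A/B alone, 49 members were called in 18 of 18 libraries, and in C/D alone 68 were called in 0 of 23.

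Open DNA was tagged with the Tn5 transposase and sequenced (ATAC-seq) in 54 libraries of A/B and 71 of C/D, which form 42 groups, 41 of them with 3 libraries and 1 (line D alone in experiment 9.6.1) with 2. A group is 1 line of 1 experiment under 1 of 3 conditions, which were co-culture with NK cells sampled at a first time point (B-ALL + NK TP1) or a second (B-ALL + NK TP2), and culture without them (B-ALL alone). All 4 lines were bone marrow cells of wild-type mice transformed by a retroviral MSCV vector with the BCR/ABLp185 fusion kinase, tagged with DNA barcodes and GFP, and sorted as GFP+ cells. NK cells were primary spleen cells activated with interleukin-2, which was present in every arm, mixed 1:1 with the leukaemia cells at the start. Per the paper, the leukaemia cells were sorted and re-plated at the first harvest and mixed 1:1 with fresh NK cells. TP2 thus follows a renewed addition of NK cells. Lines A and B share 1 parental line and C and D share a different one. Lines of 1 pair are thus no independent replicates, and A/B over C/D sets 1 parental line against the other. There were 6 combinations of line and experiment in A/B (experiments 9.5, 9.6 and 9.7) and 8 in C/D (also 9.5.1 and 9.6.1). In line C, 2 pairs of replicates (experiment 9.5 at TP2 and 9.5.1 alone) differed by less than sampling noise, and each pair was counted as 1 sample, which left 123 samples. By the labels TP1 was day 4 and TP2 day 10, and days 6 and 16 in experiment 9.7. The methods give a later window for TP2 than day 10, and day 16 lies within it. B-ALL alone was taken at TP1 only, so at TP2 the length of culture, the sort and re-plating, and the exposure to NK cells cannot be told apart.

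Nucleosome-free stretches mark promoters and enhancers that transcription factors occupy, and enhancers differ more between cell types than promoters do. NK cells kill their targets with perforin and granzymes and secrete interferon-γ, which opens chromatin at interferon-stimulated genes. They also remove part of a mixed population, so the peaks of the cells left after co-culture can differ either because chromatin changed within cells or because other cells remained. In bulk libraries such as these, fewer cells with an open peak and less accessibility in each cell cannot be told apart.

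The members were mostly distal. By their centre, 50 lay in introns, 34 between genes, 8 in untranslated and 3 in coding exons and 6 in exons of non-coding genes (GENCODE M21, GRCm38), and 32 had a transcription start site (TSS) within 1 kb. Members are named here by the gene of the nearest TSS, which for 52 was a protein-coding gene. Nearness names a peak and does not say which gene it serves. Median length was 1607 bp (719 to 4042 bp). GC content (median 48.0%, against 48.7% in all 58886 tested peaks), the observed over expected CpG ratio (0.275, against 0.220) and repeat content (16.1%, against 15.1%) lay near those of all tested peaks. Peaks open in both pairs lay closer to promoters, with 45.6% within 1 kb of a TSS, against 31.7% of the members and 28.3% of all tested peaks.

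Windows of 300 bases at the centre of 6 members are printed because the results below turn on these peaks. They are the member promoter with the highest signal (Ptpn14, chr1:189727709-189728008), the peak with gains in both pairs of lines (Tmem45a2, chr16:57031099-57031398), the gain with the largest C/D change (Gm29685, chr10:107947983-107948282), a pair of strong TP2 losses (Gm3222, chr17:14703151-14703450, and 2610035D17Rik, chr11:113063840-113064139) and a peak at a heavy chain D segment whose signal fell in line A (Ighd2-5, chr12:113466833-113467132). The sequences are the plus strand of GRCm38, from RefSeq, read 5′ to 3′. Capitals mark matches to 1 of the 13 motifs searched on both strands.
Ptpn14: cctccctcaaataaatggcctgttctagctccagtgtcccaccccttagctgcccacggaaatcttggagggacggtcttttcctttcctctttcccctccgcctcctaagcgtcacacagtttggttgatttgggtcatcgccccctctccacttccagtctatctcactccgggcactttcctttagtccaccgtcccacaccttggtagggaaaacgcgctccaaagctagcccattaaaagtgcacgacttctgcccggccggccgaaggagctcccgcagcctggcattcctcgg
Tmem45a2: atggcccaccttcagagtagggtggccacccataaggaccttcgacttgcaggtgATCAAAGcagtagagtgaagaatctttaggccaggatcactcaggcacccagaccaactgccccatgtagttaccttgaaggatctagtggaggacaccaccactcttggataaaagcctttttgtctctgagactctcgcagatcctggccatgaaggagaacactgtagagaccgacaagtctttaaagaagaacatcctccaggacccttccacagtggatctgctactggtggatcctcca
Gm29685: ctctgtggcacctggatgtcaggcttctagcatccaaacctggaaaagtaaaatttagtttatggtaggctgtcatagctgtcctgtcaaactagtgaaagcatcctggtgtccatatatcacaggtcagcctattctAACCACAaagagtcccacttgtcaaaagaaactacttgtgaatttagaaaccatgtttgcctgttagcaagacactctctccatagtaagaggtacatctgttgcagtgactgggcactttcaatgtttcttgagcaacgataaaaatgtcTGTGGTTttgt
Gm3222: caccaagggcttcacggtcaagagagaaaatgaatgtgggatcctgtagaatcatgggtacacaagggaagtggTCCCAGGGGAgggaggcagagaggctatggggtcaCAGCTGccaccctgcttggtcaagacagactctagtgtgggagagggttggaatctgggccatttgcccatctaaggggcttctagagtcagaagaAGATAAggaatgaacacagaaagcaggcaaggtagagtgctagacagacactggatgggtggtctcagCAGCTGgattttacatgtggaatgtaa
2610035D17Rik: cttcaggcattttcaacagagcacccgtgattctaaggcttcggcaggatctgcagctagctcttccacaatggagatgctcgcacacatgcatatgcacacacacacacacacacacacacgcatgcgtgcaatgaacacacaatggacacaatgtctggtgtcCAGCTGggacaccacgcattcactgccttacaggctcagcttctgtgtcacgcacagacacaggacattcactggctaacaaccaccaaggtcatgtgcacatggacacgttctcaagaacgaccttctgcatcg
Ighd2-5: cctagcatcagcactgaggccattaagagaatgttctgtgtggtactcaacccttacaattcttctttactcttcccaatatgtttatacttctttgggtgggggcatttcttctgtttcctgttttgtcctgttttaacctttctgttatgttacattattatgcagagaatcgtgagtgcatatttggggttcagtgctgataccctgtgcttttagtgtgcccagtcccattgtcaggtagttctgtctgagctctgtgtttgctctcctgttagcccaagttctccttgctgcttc

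The capitals are a reverse-strand match to the TCF/LEF motif CTTTGAT in Tmem45a2, both strands' matches to the RUNX motif TGTGGTT in Gm29685, and in Gm3222 a match to the EBF1 motif, 2 matches to the E-box CAGCTG and 1 to the GATA motif AGATAA. The window of 2610035D17Rik holds 1 E-box, and those of Ptpn14 and Ighd2-5 hold no match to the letters searched. Over all members, the interferon-γ activated site TTCNNNGAA stood in 14.9% of the central windows, against 9.12% of all tested peaks, and RUNX in 13.9% against 8.67%. The E-box stood in 20.8% against 19.3%, GATA in 14.9% against 12.2%, and TCF/LEF in 3.96% against 3.86%. The interferon-stimulated response element, bound by IRF factors, was in 2.97% against 4.78%, the AP-1 motif TGANTCA in 5.94% against 8.95%, and the kappa B motif in 3.96% against 7.35%. Of the remaining motifs, the PU.1-type motif GAGGAAGT stood in 1.98% against 4.41%, the FOX motif TGTTTAC in 3.96% against 3.65% and the EBF1 motif in 1.98% against 1.9%, while the CTCF core was in 0 of 101 members against 2.34% and the C/EBP motif TTGCGCAA in 0 against 0.0714%. Each share counts windows that hold the letters and says nothing of binding.

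Members were not spread evenly. The 101 peaks formed 85 runs when neighbours within 200 kb were joined, and 25 members lay in 9 runs of at least 2. The largest run was the Ptpn14 locus, which encodes a cytoplasmic tyrosine phosphatase, with 8 members among 13 tested peaks over 118 kb (chr1:189726165-189844604). None of the 13 was open in both pairs. Gm45336 on chromosome 8 held 3 members among 3 tested peaks, and runs of 2 members lay at Gm29685 on chromosome 10, Gm11674 and 2610035D17Rik on chromosome 11, Gm15322 and Gm31104 on chromosome 13, in the Samd12 gene near 1700015H07Rik on chromosome 15, in Tiam1 on chromosome 16 and at Gm16299 and Rbm20 on chromosome 19. Only the chromosome 13 run contained peaks open in both pairs, 5 of its 8 tested peaks. Peaks of 1 run are not independent of each other. Near-identical copies elsewhere in the genome (at least 80% of the peak at 95% identity or more) existed for Gm5953, 2410018L13Rik, Gm21297 and Gm14139, so reads of these 4 members could have been placed at either copy.

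The rule's thresholds cut through a range of levels, given as CPM, the count of a peak scaled to its library's total. Of the members, 5 sat at 15 A/B and 1 C/D calls, among them Mospd3 with a median of 21 CPM in A/B alone and 8.26 in C/D alone, Gm26574 with 9.31 and 1.93, and 6530409C15Rik with 5.21 and 2.25. Just outside, 35 peaks missed by 1 call, such as Nlgn2 (14 A/B calls) with 21.2 and 6.98 CPM, Vill (2 C/D calls) with 22.9 and 9.53, and Gm22206 (2 C/D calls) with 19 and 3.71. A member is thus a peak below the caller's threshold in C/D and not always one without signal there.

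The first question was whether the difference between the pairs outlasted co-culture with NK cells, whose libraries the rule did not use. It did at nearly all members. In B-ALL + NK at TP1, 100 of 101 members were higher in A/B than in C/D (edgeR, adjusted p at most 0.05 and log2 fold change at least 0.58), where 5.48% of all tested peaks were. In B-ALL + NK at TP2, 95 were, against 5.17% of all tested peaks. The median difference over the members was 2.45 on the log2 scale at TP1 and 2.15 at TP2. Every A/B sample lay above every C/D sample at 77 members at TP1 and at 55 at TP2. How often this held over all tested peaks was not counted. The exception at TP1, Snx9, a sorting nexin gene of the endocytic route, missed the fold threshold with a log2 difference of 0.43 ± 0.13 (SE) and passed it at TP2 with 0.62 ± 0.13. The 6 exceptions at TP2 were Gm3222, Filip1, Ulk4, St5, 1700010B08Rik and Mir6917, with log2 differences of 0.37 ± 0.21, 0.12 ± 0.16, 0.44 ± 0.14, 0.47 ± 0.16, 0.56 ± 0.18 and 0.57 ± 0.15.

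Calls in single libraries showed the same order (the plot of members called per library). In A/B the share of members called was 82.2 to 99.0% with a median of 94.1% in the 18 libraries of B-ALL + NK TP1, 57.4 to 96.0% with a median of 85.1% at TP2, and 80.2 to 99.0% with a median of 96.0% in B-ALL alone, the arm that chose them. In C/D it was 0 to 10.9% (median 4.95%) in 24 libraries of B-ALL + NK TP1, 0 to 24.8% (3.96%) at TP2 and 0 to 8.91% (0.99%) alone. The ranges of the pairs did not overlap in either arm with NK cells, and in B-ALL alone the rule itself set them apart. The A/B libraries of TP2 also called fewer of the peaks open in both pairs, 83.4 to 99.9% against 93.9 to 99.9% in B-ALL alone, and their total counts reached down to 3083547, the lowest of the series. How far depth set the calls was not tested. In A/B, 93 members were still called in at least 15 of 18 libraries at TP1 and 65 at TP2, and 5 were called in 6 or fewer at TP2. In C/D, 37 members were called in 0 libraries of both NK arms, and 2 were called in at least 12 of 24 in either arm: Tmem45a2 (17 at TP1, 15 at TP2) and the Gm29685 peak 1.49 kb from the TSS (8 and 12).

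**Figure D1:**
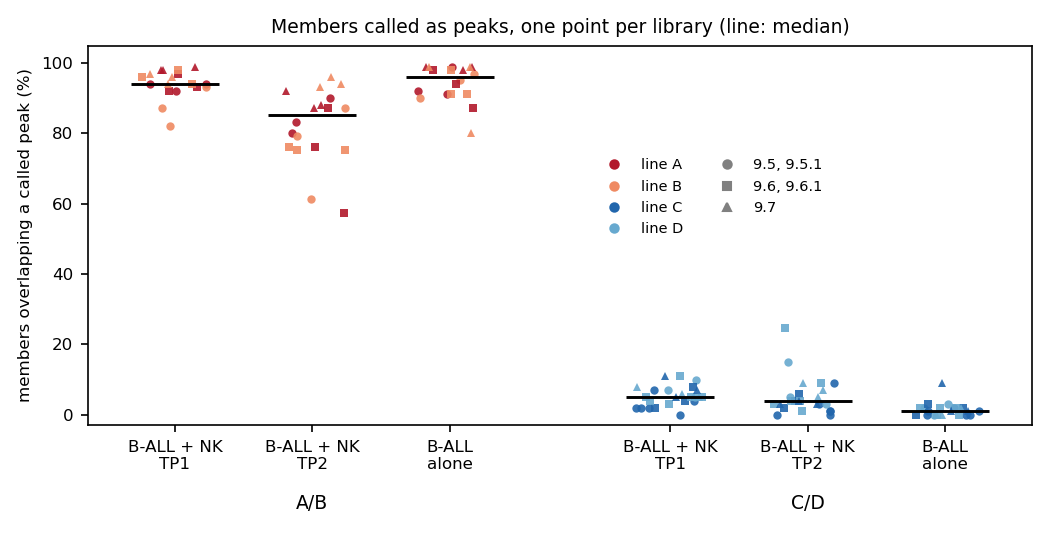
Share of the 101 members that overlap a called broad peak (y axis, %), 1 point per library, by arm for A/B (left) and C/D (right). Colours are lines, symbols experiments and black lines medians. In the arms with NK cells the A/B libraries lie at 57.4% or more and the C/D libraries at 24.8% or less. Among A/B libraries, those of B-ALL + NK TP2 reach lowest. B-ALL alone is the arm that chose the members.

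The highest levels in A/B with NK cells were those of the Ptpn14 locus and a few promoters, and the values with NK cells stood close to those alone. The peak at the Ptpn14 promoter (0.41 kb from the TSS) had 40.5, 56.3 and 75.6 CPM (lowest, median and highest of 18) in B-ALL + NK TP1, 37.5, 59.8 and 93.1 in TP2 and 41.3, 60.8 and 79.6 in B-ALL alone. All 3 arms overlapped, and the log2 fold change over B-ALL alone was −0.05 ± 0.06 at TP1 and 0.00 ± 0.06 at TP2. In C/D the same peak had medians of 3.78 and 4.65 CPM with NK cells and 4.45 alone. The 3 further Ptpn14 peaks among the 8 highest members, 10.2, 13.5 and 5.51 kb from a Ptpn14 TSS, had TP2 medians of 42.6, 41.6 and 30.8 CPM in A/B and were not called. Outside Ptpn14, medians in A/B at TP2 were 48.3 CPM at the non-coding gene Gm46430, 44.3 at Nradd, a gene for a death-domain protein, 40.6 at Grb10, an adaptor that dampens insulin receptor signalling, and 33.1 at Gm8873, against 47.4, 50.3, 39.5 and 32.7 in B-ALL alone. None of these 4 passed the fold threshold in either arm.

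At TP1, few members were called in A/B. Of 101, 6 were higher in B-ALL + NK TP1 than in B-ALL alone, where 6.86% of all tested peaks were higher, and 2 were lower, where 0.91% were. The median log2 fold change was 0.01 over the members and 0.01 over all tested peaks. Since B-ALL alone was the arm on which members had to be open in A/B, its values at members lean high in A/B and low in C/D by the choice, and counts over B-ALL alone are read with that in mind.

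The gains at TP1 lay at 4 loci. The peak in an intron of Samd12, 103 kb from 1700015H07Rik (chr15:53723622-53725515), had 6.32, 10.2 and 19.3 CPM in B-ALL + NK TP1 and 2.04, 4.09 and 8.07 in B-ALL alone. The arms overlapped only at their edges, and the log2 fold change was 1.28 ± 0.15 (edgeR adjusted p = 5.92e-11, higher in 6 of 6 combinations). At Gm29685, a lincRNA gene, the peak 1.49 kb from the TSS (chr10:107947571-107948693), whose centre is printed above with a RUNX match on each strand, had 9.25, 15.2 and 24 CPM, against 4.01, 7.03 and 10.1 alone, a log2 fold change of 1.12 ± 0.10 (adjusted p = 7.78e-14, 6 of 6). Its neighbour 4.72 kb from the TSS rose by 0.62 ± 0.11.

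Tmem45a2, a transmembrane protein gene whose peak lay 40.1 kb away (chr16:57030029-57032468), had 7.87, 12.2 and 19.7 CPM in B-ALL + NK TP1, against 4.37, 5.98 and 10.1 in B-ALL alone (1.0 ± 0.10, adjusted p = 4.5e-13, 6 of 6). Both Gm11674 peaks, which lie in a stretch with no protein-coding TSS nearer than Kcnj2, 753 and 792 kb away, rose by 0.77 ± 0.13 (57.4 kb from the TSS) and 0.77 ± 0.11 (18 kb). So 5 of the 6 gains lay in runs of members. The 2 losses were single peaks. In an intron of Snx9 (chr17:5867276-5869040) the levels were 2.58, 3.84 and 5.63 CPM, against 3.85, 6.86 and 12.7 alone (−0.78 ± 0.11, lower in 6 of 6), and at Gm24994 (chr12:77993438-77994890) they were 4.79, 7.11 and 11.8 CPM, against 8.04, 11.7 and 15.6 alone (−0.66 ± 0.10).

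At TP2, more members were lower than higher in A/B. In A/B, 12 members were lower in B-ALL + NK TP2 than in B-ALL alone, where 1.42% of all tested peaks were lower, and 5 were higher, where 4.7% were. The median log2 fold change was −0.06 over the members and −0.00 over all tested peaks, so the losses were those of single members and not of all. Peaks open in both pairs also had more losses than gains in 9.5 (620 of 25700 lower and 352 higher) and in 9.6 (583 and 163), while in 9.7 395 were lower and 737 higher. Of the members, 12.9% were lower and 4.95% higher in 9.5, 13.9% and 3.96% in 9.6, and 12.9% and 7.92% in 9.7. Over both time points 22 members were called and 79 were not, 3 were called in the same direction at both (all 3 higher) and 0 in opposite directions.

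The largest loss was at the TSS of St5, a gene for a DENN-domain protein that acts on Rab GTPases (chr7:109615829-109617202). Its peak had 1.30, 4.75 and 7.26 CPM in B-ALL + NK TP2, against 8.05, 14.2 and 22.1 in B-ALL alone, and no sample of one arm reached the other. The log2 fold change was −1.73 ± 0.10 (edgeR adjusted p = 2.13e-22, lower in 6 of 6 combinations). At TP1 it already stood at 5.92, 9.23 and 16.1 CPM (−0.52 ± 0.09, short of the fold threshold), and the peak was called in 3 of 18 libraries at TP2, against 17 of 18 at TP1.

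At Gm3222 (chr17:14702304-14704297), 9.1 kb from the thrombospondin gene Thbs2, the peak had 0.40, 2.72 and 7.44 CPM at TP2, against 4.11, 7.94 and 12.6 alone (−1.62 ± 0.15, adjusted p = 7.18e-14). Its TP1 values, 2.43, 8.79 and 13.7 CPM, overlapped those of B-ALL alone throughout (−0.08 ± 0.13), so the loss was seen only in the TP2 libraries. The peak in 2610035D17Rik (chr11:113062690-113065288), a long non-coding gene next to Sox9, had 2.2, 15.4 and 37.3 CPM, against 9.20, 36.8 and 60.4 alone (−1.30 ± 0.13, adjusted p = 1.03e-12). Its ranges were wide, and lines A and B differed in level. Its partner in the run had medians of 17.6 CPM at TP2 and 23.2 alone and was not called (−0.29 ± 0.07).

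The next losses at TP2 were smaller in fold change. Gm25096 on chromosome 1 had 0.81, 1.69 and 3.63 CPM, against 1.88, 4.41 and 7.01 alone (−1.27 ± 0.13), 4933409F18Rik on chromosome 12 had 2.43, 5.37 and 12.1, against 9.23, 14.7 and 19.1 (−1.18 ± 0.11), and 1700010B08Rik on chromosome 2 had 1.47, 3.78 and 7.68, against 5.24, 7.34 and 10.1 (−1.04 ± 0.11). In all 3, the highest TP2 samples reached into the range of B-ALL alone. Gm49292 fell by 1.02 ± 0.13, Filip1, which encodes a filamin-binding protein, by 0.93 ± 0.12, Gm11011 by 0.88 ± 0.12, and Gm37624 and the pseudokinase gene Ulk4 by 0.71 ± 0.12 and 0.71 ± 0.11. Of the 12 losses, 10 had the same sign in all 6 combinations, the exceptions being Ulk4 and Ighd2-5.

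The 5 gains at TP2 were the peaks of Tmem45a2 (0.79 ± 0.10), Gm29685 (0.85 ± 0.11) and 1700015H07Rik (0.78 ± 0.15) that had already risen at TP1, with Btbd8 and Gm14139. The Btbd8 peak, 0.63 kb from the TSS of this BTB-domain gene (chr5:107497516-107499304), had 7.86, 12 and 18.3 CPM at TP2, against 4.34, 6.12 and 12.1 alone (0.85 ± 0.13, higher in 5 of 6). Gm14139, one of the members with near-identical copies, had 11.0, 19.7 and 26.3 CPM, against 8.59, 12.6 and 20.5 (0.59 ± 0.09), and was not called in 5 of 14 alternatives. It stood at 0.57 with DESeq2, 0.40 in line B alone and 0.36 without experiment 9.7, and experiment 9.5 fitted alone gave 0.17 ± 0.11.

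**Figure D2:**
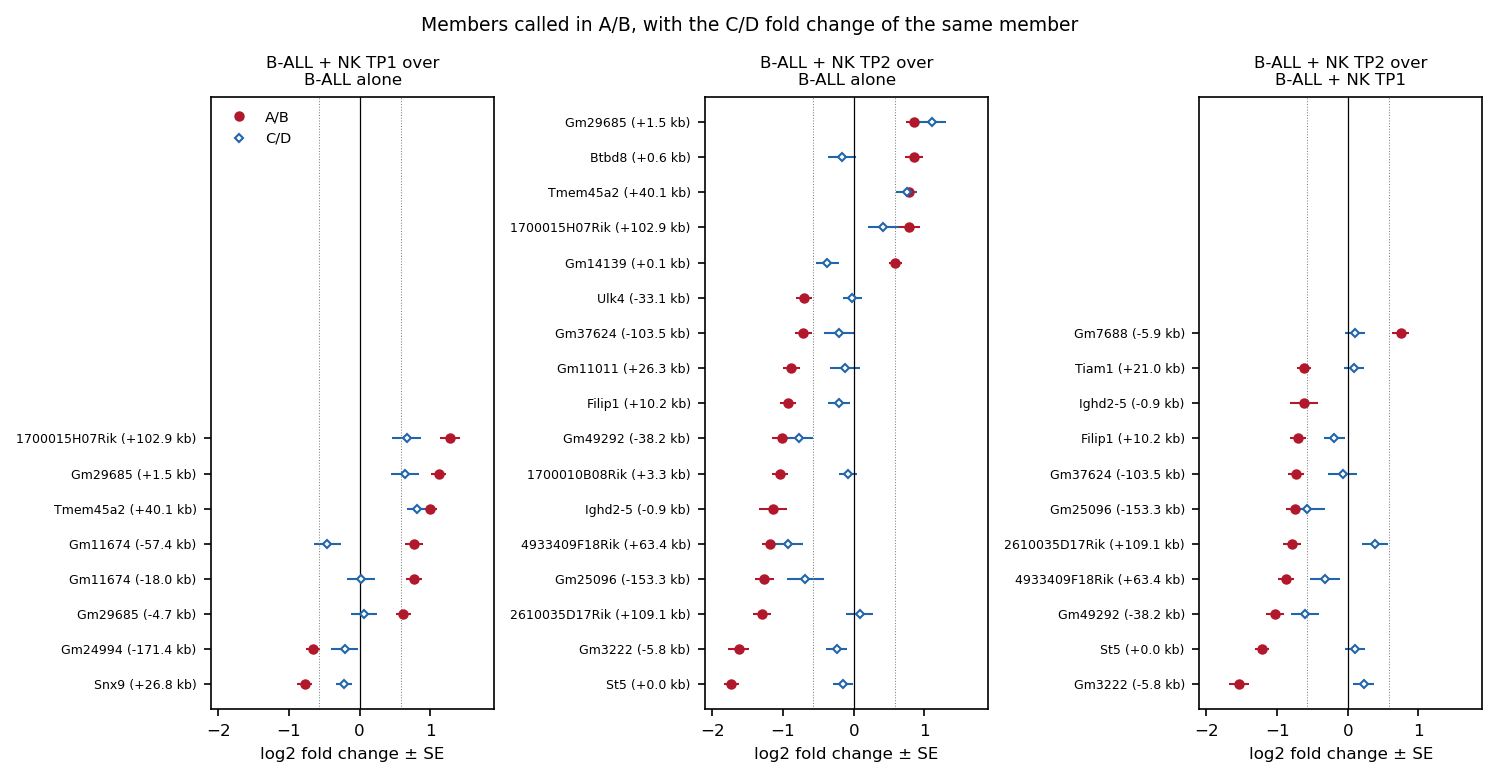
Log2 fold change with its SE (x axis) of each member called in A/B, for B-ALL + NK TP1 over B-ALL alone, B-ALL + NK TP2 over B-ALL alone and TP2 over TP1. Filled circles are A/B, open diamonds the same peak in C/D (left out for Ighd2-5, at 0 counts in most C/D libraries), and dotted lines the fold threshold. At TP2 the A/B points reach −1.73 at St5, whose C/D point stands at −0.16.

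TP2 over TP1 sets aside B-ALL alone altogether, so the rule bears on neither arm. The arms differ both in length of culture and by the sort and renewed addition of NK cells. In A/B, 10 members were lower at TP2 than at TP1, where 1.63% of all tested peaks were lower, and 1 was higher, where 0.104% were. Of the 12 losses over B-ALL alone, 9 were also losses over TP1. Gm3222 fell by 1.54 ± 0.15, St5 by 1.21 ± 0.10, Gm49292 by 1.03 ± 0.12, 4933409F18Rik by 0.88 ± 0.11, 2610035D17Rik by 0.79 ± 0.13, Gm25096 and Gm37624 by 0.74 ± 0.14 and 0.74 ± 0.11, Filip1 by 0.70 ± 0.12 and Ighd2-5 by 0.62 ± 0.20, a call lost with a replicate block (adjusted p = 0.0501). The tenth was a peak in Tiam1, which encodes an exchange factor for the GTPase Rac, with 2.3, 4.91 and 10.1 CPM at TP2 and 5.12, 8.29 and 12 at TP1 (−0.62 ± 0.10, adjusted p = 6.72e-06). The 1 rise was at Gm7688 on chromosome 8, with 2.85, 5.14 and 9.08 CPM at TP2 and 1.9, 3.22 and 6.14 at TP1 (0.75 ± 0.12, higher in 6 of 6).

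**Figure D3:**
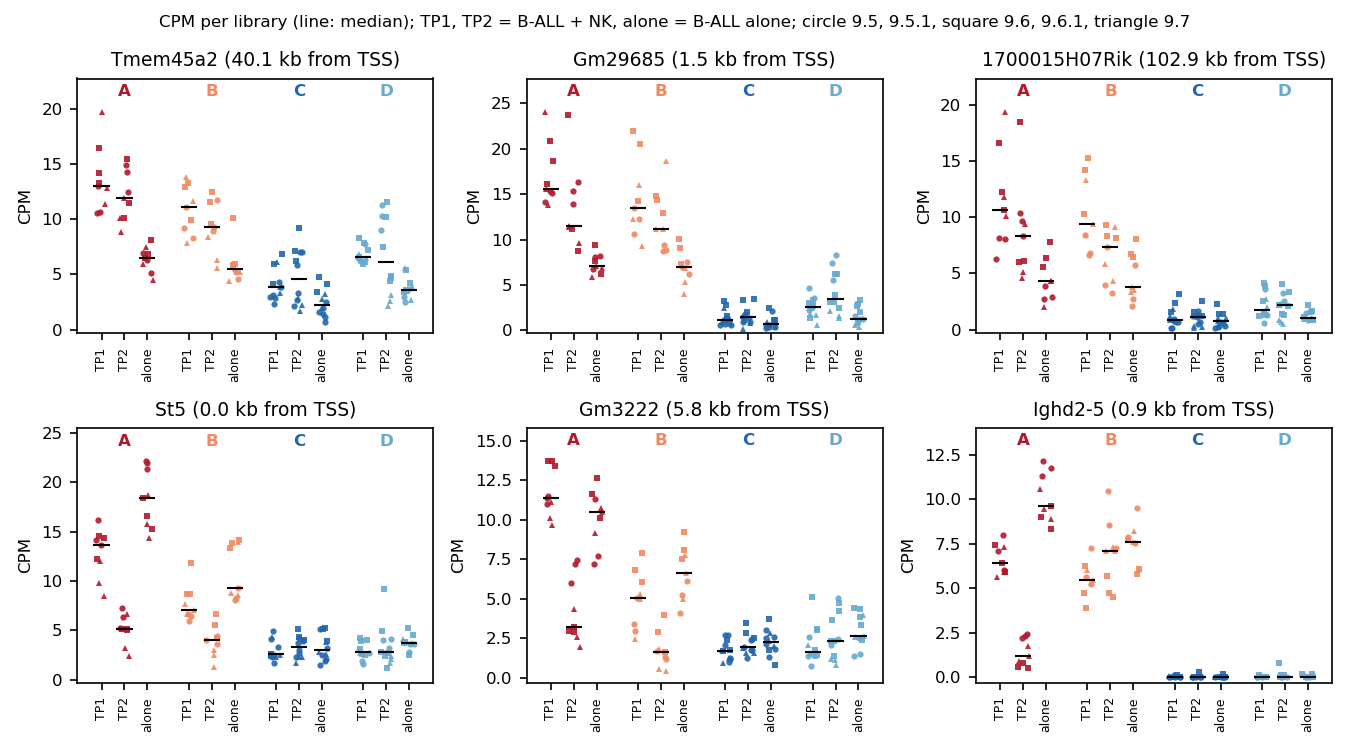
Level in CPM (y axis) of 6 members in each library, in B-ALL + NK TP1, B-ALL + NK TP2 and B-ALL alone, with lines A to D side by side. Tmem45a2 reaches 12.2 CPM (median) in A/B at TP1, against 5.98 alone, and St5 drops to 4.75 CPM at TP2, against 14.2 alone.

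As a further guard against the choice on B-ALL alone, members were chosen again without the libraries of 1 experiment and the effect was measured in that experiment. Without 9.5 the rule gave 152 peaks, of which 19 were lower and 7 higher in A/B at TP2 in experiment 9.5, where 2.46% and 7.2% of all tested peaks were. Without 9.6 it gave 128, with 16 lower and 4 higher in 9.6, where 1.76% and 7.51% were. Without 9.7 it gave 119, with 12 lower and 12 higher in 9.7, where 2.97% and 4.48% were. St5, Gm3222, 2610035D17Rik, Gm25096, 4933409F18Rik and 1700010B08Rik were each below −0.58 in all 3 experiments fitted alone, with St5 at −1.55, −1.5 and −2.12 in 9.5, 9.6 and 9.7.

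**Figure D4:**
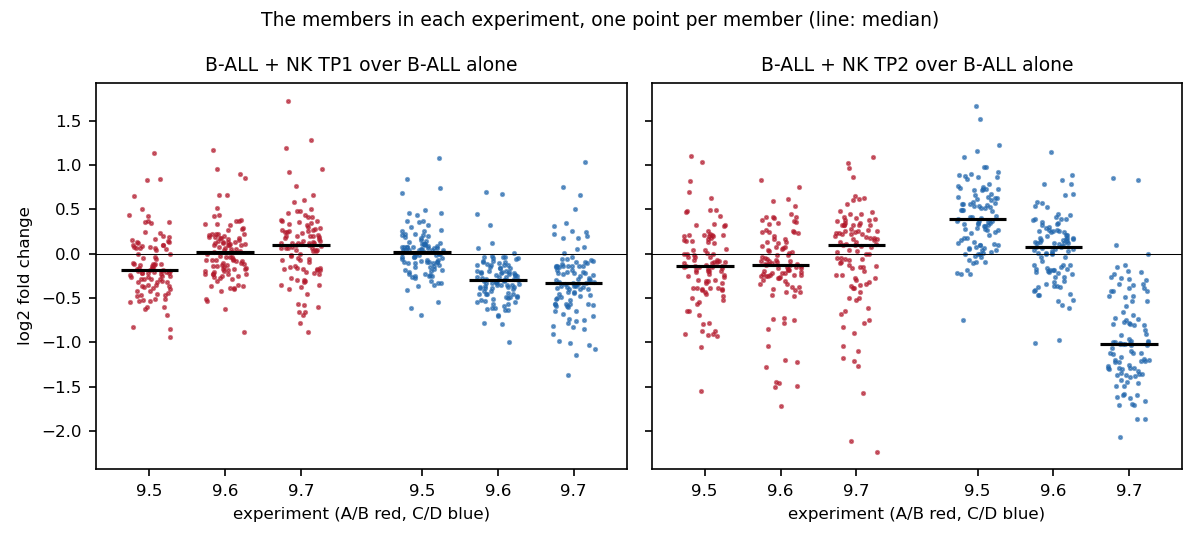
Log2 fold change of each member (y axis, 1 point per member) in each experiment fitted alone, for B-ALL + NK TP1 (left panel) and B-ALL + NK TP2 (right panel) over B-ALL alone, with A/B in red and C/D in blue and black lines at the medians. At TP2 the A/B medians lie between −0.14 and 0.10, while the C/D medians lie at 0.40 in experiment 9.5 and −1.02 in 9.7.

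In C/D, where members were closed at baseline, the question was whether NK cells opened them. Few changed. At TP1, 3 members were higher (2.07% of all tested peaks) and 2 lower (0.143%), and at TP2 2 were higher (1.87%) and 4 lower (1.11%). TP2 over TP1 gave 2 higher (0.188%) and 1 lower (0.554%). Counts behind these values were low, with a median over members of 12.5 counts per library at TP1 and 11.0 at TP2, against 12 in B-ALL alone, so C/D fold changes rest on few counts and small ones were not detectable. Counts of calls moved with the experiments used: without 9.7, 9 members were higher and 2 lower at TP2, and without 9.5, 2 were higher and 15 lower. The shares of all tested peaks called in these fits are not given here. The background moved too, with 13.6% of all tested peaks lower at TP2 in 9.7 fitted alone, against 1.11% in 9.5.

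The C/D gains were at peaks that also rose in A/B. Tmem45a2 had 2.35, 6.15 and 8.28 CPM in C/D with NK cells at TP1 and 1.72, 4.87 and 11.5 at TP2, against 0.72, 3.34 and 5.59 alone, log2 fold changes of 0.81 ± 0.14 (8 of 8 combinations, adjusted p = 1.27e-05) and 0.75 ± 0.15 (6 of 8). Its median with NK cells in C/D reached that of A/B alone at TP1, 6.15 against 5.98 CPM. The Gm29685 peak had 0.54, 1.74 and 4.70 CPM at TP1 and 0.11, 2.18 and 8.27 at TP2, against 0.25, 1.03 and 3.36 alone (0.64 ± 0.20 and 1.11 ± 0.19, the second with 8 of 8), and the 1700015H07Rik peak 103 kb from the TSS rose by 0.66 ± 0.21 at TP1, a call that was lost in 5 of 12 alternatives. No difference between the pairs was called for these gains. For Tmem45a2 at TP1 the A/B minus C/D difference was 0.19 ± 0.18, and for Gm29685 at TP2 it was −0.29 ± 0.22.

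Of the losses in C/D, 3 at TP2 were also called in A/B, at 4933409F18Rik (−0.92 ± 0.21, lower in 8 of 8), Gm49292 (−0.78 ± 0.21) and Gm25096 (−0.68 ± 0.26). Gm24382 fell in C/D (−0.87 ± 0.18) and stood at −0.05 ± 0.11 in A/B, a difference of 0.81 ± 0.21. All of these C/D losses were largest in 9.7. With 9.5, 9.6 and 9.7 fitted alone, C/D stood at −0.75, −0.54 and −1.66 at 4933409F18Rik and −0.01, −0.97 and −1.26 at Gm49292. Gm25096 stood at −0.11, −0.38 and −1.86, and Gm24382 at −0.07, −1.01 and −1.69. At TP1 the C/D losses were at a Gm45336 peak (−0.70 ± 0.18) and 4933409F18Rik (−0.60 ± 0.19). Between TP1 and TP2, 4930544F09Rik, which lies in the Mtss1 gene, and Inpp5k, which encodes an inositol phosphatase, were higher at TP2 (0.76 ± 0.13 and 0.75 ± 0.12). The Gm24382 values were low, with 2.70 CPM in the highest C/D sample at TP2.

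The C/D effect at TP2 depended on the experiment. In 9.5 (with 9.5.1), 16 members were higher (4.32% of all tested peaks higher and 1.11% lower) and the median log2 fold change was 0.40. The 2314 other tested peaks called in at most 1 C/D library alone rose more often there, in 36.7%, with a median of 0.53. In 9.6 (with 9.6.1), 4 were higher and 2 lower (1.97% and 1.14%), with a median of 0.08, against 16.1% higher and a median of 0.27 in those other peaks. In 9.7, 71 of 101 were lower and 1 higher (13.6% lower and 9.7% higher), with a median of −1.02. The peaks chosen without 9.7 gave 83 lower of 119 there. The same other peaks also fell in 9.7, 27.1% of them with a median of −0.30, while 13% of the peaks open in both pairs rose. By combination, the median log2 ratio of the members was −0.78 in C and −0.96 in D in 9.7, −0.51 in D in 9.6.1, 0.13 and 0.42 in C and D in 9.6, 0.61 and 0.54 in 9.5 and 0.15 in C in 9.5.1.

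The summed level of the members in C/D moved against the share of all counts that fell in peaks open in both pairs. That share is of unscaled counts over all consensus peaks, while CPM is scaled, so they rest on different totals. In 9.7, line C had 148 ± 21.1 CPM over the members in B-ALL + NK TP2 (SD, n = 3) with 72.2% of counts in such peaks, against 240 ± 36.2 CPM with 66.1% in B-ALL alone, and D had 166 ± 14 CPM with 72.9%, against 279 ± 24.7 CPM with 63.5%. In 9.5 it was reversed, with 301 ± 40.6 CPM and 59.9% in D at TP2, against 212 ± 16.4 CPM and 67.5% alone. The part of this signal-to-background shift in the C/D values was not tested, and 9.7 also differed in its days. In A/B, members summed to 1028 to 1585 CPM at TP2 and to 1129 to 1508 CPM alone.

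The NK effect itself differed between the pairs at some members. At TP1 the A/B minus C/D difference was called at 5 members, all in the direction of A/B (3.36% of all tested peaks in that direction and 0.518% in the other): both Gm11674 peaks (1.22 ± 0.23 and 0.75 ± 0.24), Gm6345 (0.89 ± 0.21), Chst2 (0.85 ± 0.17), a sulfotransferase gene, and Gm5171 (0.68 ± 0.23). Without replicate 1 of every group 0 members were called, and without replicate 3, 3 members were. At TP2, 6 were called toward A/B (3.03%) and 10 toward C/D (1.58%). This split changed with the experiments used, with 14 toward A/B and 7 toward C/D without 9.5, and 1 and 18 without 9.7. For these fits the shares of all tested peaks are not given here. St5 led with −1.57 ± 0.18 (adjusted p = 1.01e-11), and its C/D values were 1.16, 2.85 and 9.14 CPM at TP2 against 1.5, 3.71 and 5.22 alone. After the loss in A/B the pairs overlapped at St5, with an A/B over C/D difference of 0.47 at TP2 and 1.80 at TP1. At Gm3222 the A/B over C/D difference was 0.37 at TP2, not called, and 2.12 at TP1, and the NK effect differed by −1.39 ± 0.22. In 9.7 fitted alone C/D also fell at both, with −0.74 at St5 and −0.99 at Gm3222.

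Lines A and B, from 1 parental line, differed in which members they lost. At TP1 the A minus B difference of the NK effect was called at 0 members and 0.0% of all tested peaks in either direction (edgeR, with 14 members and 2453 of all tested peaks at an unadjusted p under 0.05). At TP2 it was called at 17 members, 10 higher in A (0.571% of all tested peaks) and 7 lower in A (0.678%). At 2610035D17Rik line A fell by 0.74 ± 0.09 and B by 2.43 ± 0.14, a difference of 1.72 ± 0.16. Combination means were 33.5, 27.3 and 29.2 CPM in A at TP2, against 53.3, 44.7 and 49.3 alone, and 3.51, 6.05 and 3.93 in B, against 12.2, 30.2 and 28.3 alone (experiments 9.5, 9.6 and 9.7).

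Svip, a gene for an inhibitor of protein degradation at the endoplasmic reticulum, was at 0.04 ± 0.14 in A and −1.51 ± 0.23 in B. In the other direction, Gm11011 was at −1.55 ± 0.12 in A and −0.38 ± 0.13 in B, 1700010B08Rik at −1.58 ± 0.14 and −0.59 ± 0.14, Gm37624 at −1.29 ± 0.14 and −0.26 ± 0.13, and Gm5171 at −1.12 ± 0.21 and 0.21 ± 0.16. Btbd8 rose in A (1.54 ± 0.15) and stood at 0.20 ± 0.12 in B. The remaining differences were at most 1.15 on the log2 scale in size and lay at Gm21297, n-TStga1, Gm11674, 4933409F18Rik, Ptpdc1, Gm15654, Sostdc1, Myof and Tlx2. St5 (difference −0.27 ± 0.21) and Gm3222 (0.73 ± 0.30) fell in both lines.

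**Figure D5:**
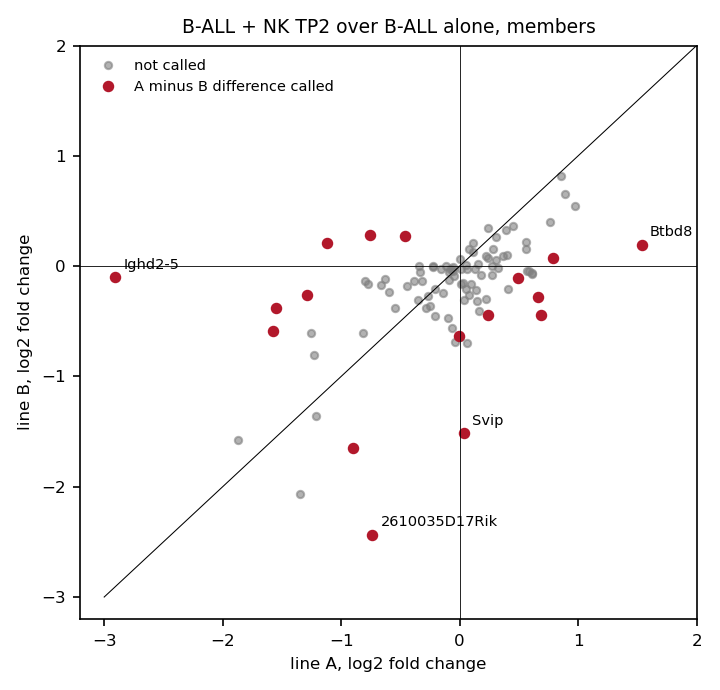
Log2 fold change of B-ALL + NK TP2 over B-ALL alone of each member in line A (x axis) and line B (y axis), each line fitted alone. Members whose A minus B difference was called are red, with the 4 farthest named. Ighd2-5 lies at −2.91 in A and −0.10 in B, and 2610035D17Rik at −0.74 and −2.43.

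The largest split between the lines was at Ighd2-5, a diversity (D) segment of the immunoglobulin heavy chain locus (chr12:113466116-113467849, 37.15 kb from Ighj1). B cell precursors assemble the heavy chain gene by joining a D to a J segment, which deletes the DNA between them. In A the combination means were 2.3, 0.63 and 1.28 CPM at TP2, against 11.7, 8.98 and 9.65 alone, and every sample at TP2 lay below every sample alone. In B they were 8.76, 4.96 and 7.17 CPM at TP2, against 8.32, 6.52 and 7.28 alone. The log2 fold change was −2.91 ± 0.17 in A and −0.10 ± 0.12 in B (difference −2.78 ± 0.20, adjusted p = 5.31e-16). In C/D the peak had 0 counts in 59 of 71 libraries, at most 5 in any and 16 in all, whereas every other member had 0 counts in at most 4 C/D libraries. No fold change is given for C/D there.

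Of the neighbouring peaks of the D region, no members, the one at 113470615 to 113473704 had median counts, not scaled to library totals, of 12 in A and 57 in B at TP2, against 72.5 in A/B alone. The next, at 113475270 to 113477359, had 80 in A and 17 in B, against 30 in A/B alone. In C/D the first had a median of 15.5 counts at TP2, against 67 alone, and the second 3, against 13. These 2 were named after their values were seen, and their differences were not tested. The A/B values alone pool both lines, so whether A and B already differed there without NK cells is not shown. Absent DNA and closed chromatin can both give low counts, and which of them lay behind these values was not tested.

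Of 12 gene lists, 3 had a member within 100 kb of a listed TSS. Lef1, a Wnt pathway transcription factor active in B cell precursors, had a peak 26.1 kb away with medians of 7.96 CPM at TP1, 5.25 at TP2 and 7.44 alone in A/B, and no contrast called it. Pim1, a kinase gene induced by STAT5 downstream of BCR/ABL, lay 22.7 kb from the promoter peak of Gm26885, with 6.35, 7.34 and 6.99 CPM. Ighd2-5 was the third. The lists of 62 interferon-stimulated genes, 30 genes of antigen presentation, 27 NK receptor ligands and checkpoints and the 6 remaining lists had 0 members within 100 kb. A member lay in an intron of Ifnar1, which encodes a chain of the type I interferon receptor and is not on the lists, where A/B medians were 11.8 CPM at TP1, 12.4 at TP2 and 12.8 alone and C/D medians 2.34, 2.76 and 2.39. It was called in no A/B contrast between arms.

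The library totals over all peaks lay between 3083547 and 13580746 counts. Markers of other cells the sort could have let through were read from peaks. Summed over the 11 of 24 NK cell marker genes with a tested peak within 1 kb of the TSS, A/B libraries had medians of 96.1 CPM (72.4 to 103.5) in B-ALL + NK TP1 and 84.5 (62.9 to 92.0) at TP2, against 91.5 (79.3 to 102.5) in B-ALL alone, and C/D libraries had 85.5 and 81.9, against 89.7. The B cell list (28 of 32 genes) summed to 1794 and 1878 CPM in A/B with NK cells, against 1982 alone. T cell markers (8 of 16 genes) had 199.8 and 208 CPM, against 229, and myeloid markers (12 of 18) 357 and 357, against 351. Listed genes without a tested peak carry no value. What share these cells had in the results was not tested.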

How the data were processed

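ATAC-seq reads were processed by the authors with STAR (version not stated for the ATAC-seq reads), Picard 2.27.4 and MACS2 2.2.7.1 on GRCm38, and the authors deposited whole-number read counts per consensus peak from featureCounts 2.0.1 (fracOverlap 0.2). The authors also deposited broad peaks of each library, which hold −log10 q values of 1.00 or more. The methods name a human blacklist although the reads are mouse, and whether it removed any peak was not tested. The members and gene lists were chosen with earlier results of these data known.

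Counts were fitted with edgeR 4.0.16 in R 4.3.3 (TMM scaling, quasi-likelihood test, Benjamini-Hochberg adjustment over 58886 peaks). A peak was called at adjusted p of at most 0.05 and a log2 fold change of at least 0.58 in size. A/B and C/D were fitted separately for NK effects, with a term for each line and experiment. The level of A/B over C/D with NK cells was fitted on all 123 samples, with terms for pair and arm and for experiment. That fit had no term for the line, so its spread includes differences between sister lines. CPM is the count scaled to the library total, as edgeR computes it. Errors of fold changes are SE. Groups were taken from the labels. Per the methods, replicates were parallel biological replicates in separate wells. P-values rest on the spread between these wells and on how effects varied between lines and experiments, not on independent parental lines. Replicates 2 and 3 of line C in experiment 9.5 at TP2, and of line C in 9.5.1 alone, were closer than sampling noise allows for separate libraries, and each pair was averaged into 1 sample, leaving 123 samples. On data simulated for A/B at TP2, 100% of 2-fold and 46% of 1.5-fold changes were called.

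Named members were up to 6 called in each direction of a contrast with the same sign in every combination, up to 6 in each direction of the A/B minus C/D difference at TP2, the 8 with the highest level in A/B with NK cells, up to 3 per gene list and 3 on either side of the rule's thresholds. All other members named, among them Filip1, Ulk4, Gm37624, Ifnar1, Mir6917, Ighd2-5 in lines A and B and the members that differed between A and B, were chosen after their values were seen. Near-identical copies were searched with minimap2 2.31-r1302. DESeq2 1.42.0, other scalings, filters, membership rules and left-out replicates and experiments were tried as alternatives.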

Additional observations from a re-analysis of the deposited data

Results flagged for a closer look

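The NK effect differed between A/B and C/D, by a test of the difference itself, at 5 members at TP1 and at 16 at TP2. At TP2 the log2 difference, A/B minus C/D, was −1.57 at St5, −1.40 at 2610035D17Rik, −1.39 at Gm3222, −0.97 at 1700010B08Rik, −0.78 at Gm11011 and −0.74 at Slco4a1. It was 1.0 at Btbd8, 0.96 at Gm14139, 0.87 at Gm11674, 0.81 at Gm24382, 0.69 at Chst2 and 0.64 at the 1700015H07Rik peak 47.0 kb from the TSS. In 10 alternatives the call was lost in 5 for this 1700015H07Rik peak, in 4 each for Gm11011 and Gm11674, in 3 for Gm24382, in 2 for Chst2 and in 1 each for Gm14139 and Slco4a1, and in 0 for St5, 2610035D17Rik, Gm3222, 1700010B08Rik and Btbd8. With 9.5, 9.6 and 9.7 fitted alone, C/D stood at 0.17, −0.09 and −0.74 at St5 and at 0.00, 0.01 and −0.99 at Gm3222. At 2610035D17Rik C/D stood at 0.89, 0.26 and −1.19, against −0.91, −1.27 and −1.57 in A/B. C/D stood at −0.19, 0.05 and −0.20 at 1700010B08Rik and at 0.06, −0.34 and −0.15 at Btbd8. Within A/B, the TP2 effect differed between lines A and B at 17 members.

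In C/D at TP2 the median log2 fold change over the members was 0.40 in experiment 9.5 and −1.02 in experiment 9.7. The signs were opposite, and the difference between these experiments was not tested.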

How the results depend on the processing

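With a replicate block, 8, 17 and 10 members were called in A/B at TP1, at TP2 and for TP2 over TP1, 5, 7 and 3 in C/D, and 5 and 16 for the A/B minus C/D difference at TP1 and TP2. The block ended the call of Ighd2-5 for TP2 over TP1 in A/B (−0.62, edgeR adjusted p = 0.0501), added that of Gm11674 in C/D at TP2 (−0.61, adjusted p = 0.0289) and changed no other call of a member in these contrasts. Deviations of same-numbered replicates, pooled over all pairs of arms, had a median r of −0.004 in A/B and 0.046 in C/D. Differently numbered replicates had 0.003 and −0.018. TP1 and TP2 were not read apart from B-ALL alone, so these values cannot say whether same-numbered TP1 and TP2 libraries came from 1 well.

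Leaving out 1 replicate of every group gave 9 to 10 calls in A/B at TP1, 16 to 18 at TP2 and 11 to 13 for TP2 over TP1. In C/D it gave 1 to 3, 6 to 7 and 2 to 6, and for the difference 0 to 7 at TP1 and 9 to 16 at TP2. Leaving out 1 experiment gave 8 to 13, 16 to 17 and 9 to 17 in A/B, 2 to 6, 6 to 17 and 2 to 21 in C/D, and 4 to 9 and 9 to 21 for the difference. In A/B at TP1, 13 were called without 9.6, and 17 for TP2 over TP1 without 9.5. In C/D, 2 were called at TP1 without 9.7, 17 at TP2 without 9.5 and 11 without 9.7, and 8 and 21 for TP2 over TP1 without 9.5 and 9.7. The difference gave 9 at TP1 without 9.5 and 9 at TP2 without 9.6. Line A alone gave 30 calls at TP2 and 18 for TP2 over TP1. Shares of all tested peaks called in the alternative fits are not given here.

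With adjusted p only, A/B counts were 39, 44 and 35 and C/D counts 8, 14 and 13. The looser rule of 233 peaks gave 28 in A/B at TP1 and 21 in C/D at TP2, and the stricter rule of 37 peaks gave 1, 1 and 0 in C/D and 3 for the difference at TP1. A loess offset, added after seeing the data in C/D, gave 6 in C/D for TP2 over TP1, and in A/B at TP1 6 higher and 5 lower. The causes were not tested. Among named members, 475 values kept their call, 43 fell short of a threshold and 0 reversed. In C/D, where the choice made members closed, they had a median of 11.0 to 12.5 counts per library, which limits precision there.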
